A study of Mus musculus with 12 samples.

Results

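The receptors that sense bile acids and the transporters that carry them in and out of the hepatocyte were followed in AML12 cells, an immortalized mouse hepatocyte line, under copper overload and taurocholic acid. The members were the 10 genes Nr1h4, Nr0b2, S1pr2, Slc10a1, Abcb11, Abcb4, Abcc2, Abcc3, Abcc4 and Slc51b, chosen by symbol for their role. Of these, 9 had a row among the 24824 genes of the deposited table, and no row was found for Slc10a1 under that symbol or under its synonym Ntcp. All cells were wild type by their labels and were cultured over 24 h in 4 groups of 3 libraries. Group A was kept in standard growth medium as the control, and group B received CuCl2 at 300 μM with the copper ionophore elesclomol (ES) at 40 nM, together called Cu/ES. Group C received the same Cu/ES with taurocholic acid (TCA) at 1000 μM, and group D received TCA at 1000 μM without Cu/ES. The labels do not say whether the 3 libraries of a group came from separate cultures, so p-values measure the spread between these libraries, which may be technical.

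Bile acids enter the hepatocyte from the blood through the sodium-dependent carrier Slc10a1 and leave it for bile through ATP-driven pumps of the canalicular membrane. Inside the cell they activate the nuclear receptor FXR, the product of Nr1h4, which induces the repressor Nr0b2 (SHP) and thereby limits bile acid synthesis, and which induces the export pumps. Conjugated bile acids such as TCA also act at the cell surface on S1pr2, a receptor for sphingosine 1-phosphate. When export into bile fails, transporters of the basolateral membrane (Abcc3, Abcc4 and the Slc51a and Slc51b pair) return bile acids to the blood.

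Only part of this system was measurable in AML12 cells. Expression was deposited as FPKM, which divides the reads of a gene by its length and by the total of the library, and the number of reads behind each value was recovered from the spacing of the values. Nr1h4, S1pr2 and Abcc4 had a mean of at least 1 FPKM over the 12 libraries and were called measured. Abcb11, Abcb4, Abcc2 and Abcc3 had a lower mean but at least 10 reads in some library and were called low. Nr0b2 and Slc51b never reached 10 reads or could not be converted to reads, and were called too low to measure. Each library of A held between 38298857 and 39108519 reads, of B between 30773752 and 32002324, of C between 29115011 and 34912748 and of D between 39444420 and 39782142, so that a gene at 0 in all 3 libraries of group A was limited to 3 of that group's 116325442 reads.

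The cells also lacked several secreted products of liver parenchyma. Alb, Apob, Fgb and Ahsg, which encode albumin, apolipoprotein B, a fibrinogen chain and fetuin A, were at 0 in every library of group A, whereas the epithelial keratins Krt8 and Krt18 stood at 344 ± 37.7 and 285 ± 22.7 FPKM (mean ± SD, n = 3). The apolipoprotein gene Apoa2 stood at 1.06 FPKM in A, 0.713 in B, 0.696 in C and 0.926 in D. Apoa1 went from 0.00863 FPKM in A to 1.86 in B and 1.11 in C, and was at 0 in D. Of the 11 hepatocyte markers, 8 had a row. Their summed level, most of it from Krt8 and Krt18, ran from 597 to 650 FPKM in A, 236 to 288 in B, 173 to 209 in C and 698 to 718 in D. Markers of other liver cells also differed between groups. The 5 endothelial markers summed to between 0.922 and 1.16 FPKM in A, 6.79 and 10.5 in B, 16.5 and 19.7 in C, and 0.865 and 1.25 in D, with Pecam1 the highest of them in B and C, Cdh5 the highest in A and D, and Lyve1 at 0 in A, B and D. The 7 cholangiocyte markers, led by Spp1, summed to 920 to 1004 FPKM in A, 1242 to 1406 in B, 739 to 953 in C and 743 to 790 in D, with Krt7 at 0 in B, C and D. These markers did not move together: Spp1 went from 673 FPKM in A to 1190 in B, Krt19 from 268 to 77.3 and Epcam from 0.537 to 0.071. Of the 4 with a mean of at least 1 FPKM, 3 were called higher and 1 lower in B than in A (adjusted p under 0.05 by limma). The 5 markers of stellate cells with a row summed to 20.6 to 37.6 FPKM in A, 1.63 to 3.27 in B, 0.891 to 1.59 in C and 13.2 to 25.4 in D, and the 4 macrophage markers with a row stayed under 0.6 FPKM in all groups. The part of these differences in the values of the members was not tested.

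The stretches in front of 4 genes are shown to let genes that differed between groups in different directions be compared: S1pr2, Abcb11, Abcc2 and Abcc4. Abcc3, which differed more than Abcb11 between A and B, had no window in the table used. Each is the 250 bases before a transcription start given by RefSeq for GRCm38.p6, which is another build than the GRCm39 named for the expression data, and is printed 5′ to 3′ on the gene's strand. Capitals mark matches on either strand to the nuclear receptor half-site AGGTCA or to the antioxidant response element TGACNNNGC. They also mark the metal response element, searched as TGCACNC or TGCGCNC. The half-site is not specific to FXR.
S1pr2, chr9:20976794-20977043, minus strand: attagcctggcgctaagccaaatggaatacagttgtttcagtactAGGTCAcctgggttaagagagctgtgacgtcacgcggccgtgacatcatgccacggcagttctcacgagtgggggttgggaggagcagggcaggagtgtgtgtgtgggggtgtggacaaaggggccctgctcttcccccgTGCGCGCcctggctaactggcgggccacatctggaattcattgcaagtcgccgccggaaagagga
Abcb11, chr2:69342617-69342866, minus strand: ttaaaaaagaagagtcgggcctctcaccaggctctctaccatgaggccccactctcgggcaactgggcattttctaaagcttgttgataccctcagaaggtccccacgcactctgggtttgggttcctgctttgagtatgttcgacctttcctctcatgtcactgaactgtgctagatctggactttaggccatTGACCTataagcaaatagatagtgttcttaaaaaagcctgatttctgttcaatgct
Abcc2, chr19:43782058-43782307, plus strand: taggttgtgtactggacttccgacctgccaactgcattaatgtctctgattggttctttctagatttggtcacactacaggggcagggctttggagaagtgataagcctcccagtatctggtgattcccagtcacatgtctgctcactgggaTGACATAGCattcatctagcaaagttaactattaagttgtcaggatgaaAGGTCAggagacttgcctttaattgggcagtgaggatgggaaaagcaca
Abcc4, chr14:118706220-118706469, minus strand: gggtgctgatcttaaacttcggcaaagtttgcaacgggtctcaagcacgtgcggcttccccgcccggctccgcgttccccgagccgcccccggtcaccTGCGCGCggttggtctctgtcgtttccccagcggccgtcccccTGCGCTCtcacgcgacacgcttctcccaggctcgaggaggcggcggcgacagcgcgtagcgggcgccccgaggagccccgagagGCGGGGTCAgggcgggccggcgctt
In these stretches a half-site begins 205 bases before the start of S1pr2, 56 before that of Abcb11 and 49 before that of Abcc2. Metal response element letters lie 65 bases before the start of S1pr2 and 152 and 109 before that of Abcc4. Antioxidant response element letters lie 98 bases before the start of Abcc2 and 25 before that of Abcc4.

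Windows of 300 bases, from 250 before to 50 after a start, were given for 9 of the 10 members (11 windows, with 2 each for Abcc4 and Slc10a1, and none for Abcc3). The half-site was found in 6 of these 11 windows, those of Abcb11, Abcc2, Nr1h4, S1pr2, Slc51b and 1 of Slc10a1, against 16.3% of all 32851 windows. The antioxidant response element was in 3 member windows (12.4% of all windows), the metal response element in 2 (25.7% of all) and the heat shock element GAANNTTC in none (7.86% of all). The inverted repeat of the half-site with 1 base between (IR-1), the preferred site of FXR with its partner RXR, was in no member window and in 0.00913% of all windows. A match describes letters only and says nothing of whether a factor was bound.

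In control cells the most abundant members were S1pr2 at 13.9 ± 0.781 FPKM and Abcc4 at 13.5 ± 0.527 FPKM, whose libraries overlapped. Nr1h4 followed at 4.93 ± 0.803, Abcc3 at 1.70 ± 0.711 and Abcb11 at 0.0969 ± 0.0159 FPKM, each below its neighbour in every library. Abcb4, at 0.0310 ± 0.0348 FPKM, was not separated from the genes at 0, which were Nr0b2, Abcc2 and Slc51b. The order was different under Cu/ES: Abcc4 came first, then Nr1h4, then S1pr2, then Abcb11 in both B and C, without overlap between Abcc4 and Nr1h4, Nr1h4 and S1pr2, or S1pr2 and Abcb11 in either group. In C, Abcb11 at the fourth place overlapped Abcc2, and in B each gene after Abcb11 overlapped the next. Group D had the order of group A, except that Abcc4 at 17.7 ± 1.41 and S1pr2 at 17.5 ± 0.817 FPKM exchanged places while overlapping.

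**Figure D1:**
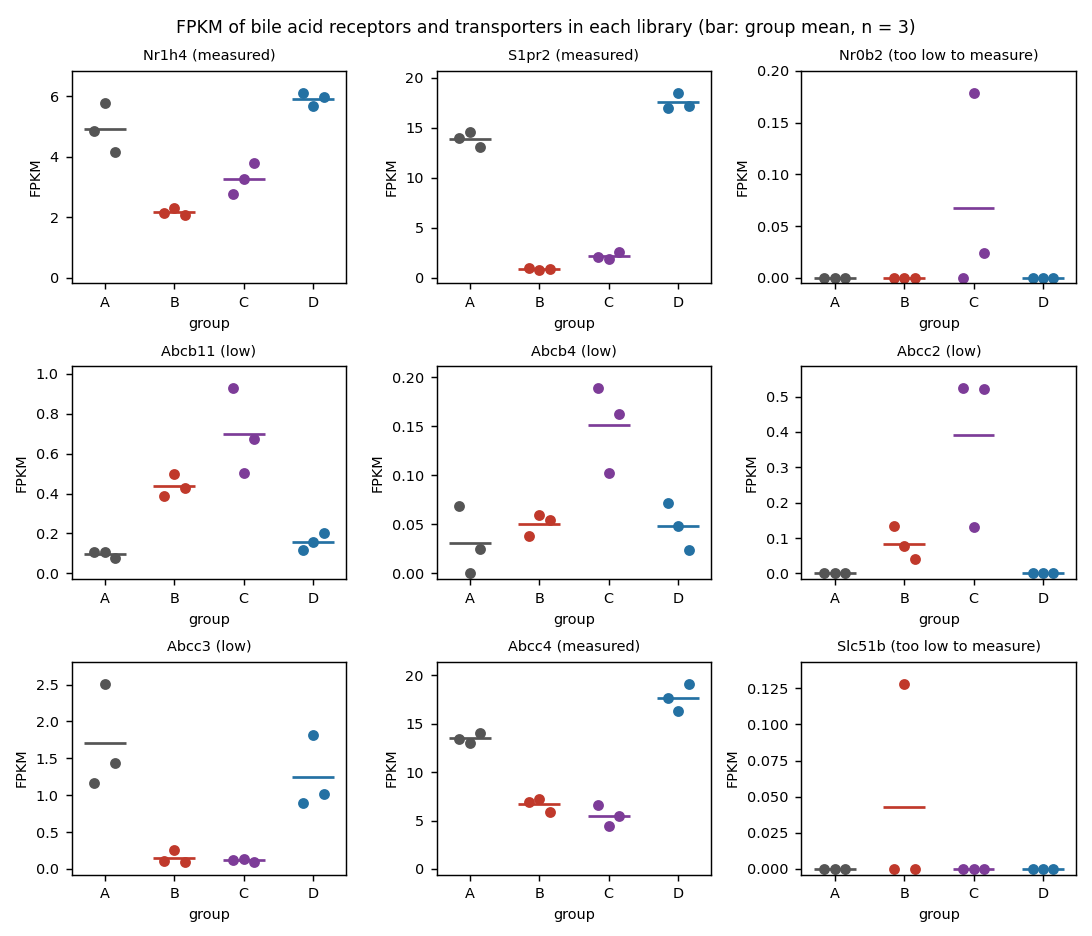
Expression of the 9 members with a row, 1 panel per gene, in FPKM (vertical axis, linear, a scale of its own in each panel) for the 3 libraries (points) of groups A, B, C and D, with the group mean as a bar. S1pr2 falls from 13.9 FPKM in A to 0.912 in B, Abcb11 and Abcc2 are highest in C, and Nr0b2 and Slc51b are at or near 0 everywhere.

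Nr1h4 encodes FXR, the nuclear receptor for bile acids. Its level was 4.86, 5.77 and 4.17 FPKM in A, 2.15, 2.30 and 2.09 in B, 2.78, 3.27 and 3.78 in C and 6.12, 5.69 and 5.97 in D. Every Cu/ES library lay below every library of A, every library of C lay above every library of B, and A and D overlapped. Relative to A, expression in B was lower (log2 fold change -0.89, SE 0.11, adjusted p = 1.76e-06). Fold changes of measured genes are on the log2(FPKM + 1) scale and were tested with limma, with p-values adjusted by the Benjamini-Hochberg method over the 10615 genes with a mean of at least 1 FPKM. In the same comparison the median of all these genes was -1.10, so that Nr1h4 stood 0.21 above the median, and its direction was not stable. With libraries scaled by the median ratio over genes it was 0.089 (adjusted p = 0.442 by limma), and with quantile normalization it was 0.51 (adjusted p = 0.000321 by limma), higher in B. In these bulk libraries, fewer cells expressing a gene and less RNA per cell cannot be told apart. With TCA added to Cu/ES, Nr1h4 rose by 1.5-fold (3.28 ± 0.502 against 2.18 ± 0.109 FPKM, log2 fold change 0.42, SE 0.11, adjusted p = 0.00586 by limma). With TCA alone the log2 fold change was 0.23, with a 95% interval from -0.02 to 0.48 (adjusted p = 0.14 by limma).

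S1pr2, the surface receptor for conjugated bile acids and sphingosine 1-phosphate, was the measured member with the largest change. Its level was 13.9, 14.6 and 13.0 FPKM in A, 0.997, 0.820 and 0.919 in B, 2.06, 1.93 and 2.63 in C and 17.0, 18.5 and 17.2 in D. The 4 groups did not overlap, in the order B, C, A and D from lowest to highest. Cu/ES lowered S1pr2 by 15.2-fold in the mean (log2 fold change -2.96, SE 0.09, adjusted p = 7.85e-13 by limma), which was 1.86 below the median of all genes, and it was called lower under every alternative, at -1.72 to -3.92. The reads behind these values fell from between 2003 and 2231 per library in A to between 103 and 124 in B. Adding TCA to Cu/ES raised S1pr2 by 2.42-fold (log2 fold change 0.74, SE 0.09, adjusted p = 3.07e-05 by limma), to 235 to 334 reads per library, and on recovered reads the log2 fold change was 1.26. TCA alone raised it by 1.27-fold (log2 fold change 0.32, SE 0.09, adjusted p = 0.024 by limma). That small rise lost its call in 5 of the 6 fits that left out a library of A or D, with a log2 fold change between 0.28 and 0.36 and an adjusted p of up to 0.0962 by limma.

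Nr0b2 encodes SHP, the repressor that FXR induces. It had 8 reads in library 2 of C (0.179 FPKM), 1 read in library 3 of C (0.0242 FPKM) and 0 in the other 10 libraries. With 9 reads in C and none in A, B or D, the groups overlapped and the gene was too low to measure. The fit on reads gave an adjusted p of 0.107 for C vs. B (limma-voom).

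Slc10a1, the sodium-dependent carrier that takes up TCA, had no row. All genes listed were above 0 in at least 1 library, but why this row was missing is not known. No level and no limit is therefore given for it here.

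Abcb11 encodes the bile salt export pump, the main exporter of conjugated bile acids into bile. It had 24, 24 and 18 reads in A, 72, 93 and 77 in B, 158, 103 and 127 in C and 27, 36 and 47 in D. In FPKM these were 0.107, 0.105 and 0.0786 in A, 0.388, 0.496 and 0.427 in B, 0.926, 0.504 and 0.671 in C, and 0.116, 0.156 and 0.203 in D. The groups did not overlap, with A lowest and C highest. Members under the mean of 1 FPKM were tested by limma-voom on the recovered reads, adjusted over 22212 genes. Abcb11 was 4.51-fold higher in B than in A (log2 fold change 2.16, SE 0.40, adjusted p = 0.000168), a call kept in all 16 alternatives. Addition of TCA to Cu/ES gave a log2 fold change of 0.62 (SE 0.28, unadjusted p = 0.0428 and adjusted p = 0.137 by limma-voom). The adjusted p passed only without library 2 of C (0.84, adjusted p = 0.0329 by limma-voom). For TCA alone it was 0.67, with an interval from -0.35 to 1.69 (adjusted p = 0.415 by limma-voom).

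Abcb4 encodes the canalicular floppase that delivers phosphatidylcholine to bile. It had 11, 0 and 4 reads in A, 5, 8 and 7 in B, 23, 15 and 22 in C and 12, 8 and 4 in D. Group C lay above all 3 other groups, which overlapped one another. The 60 reads of C against 20 of B gave a ratio, scaled by library totals, of 2.94 (95% exact interval 1.75 to 5.15, covering counting error only). Across libraries the log2 fold change was 1.48, SE 0.77, with adjusted p = 0.201 by limma-voom. The limma fits on FPKM without a filter passed, with adjusted p = 0.015 at a pseudocount of 1 and 0.0323 at 0.1, so that the call depended on the test.

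Abcc2 encodes MRP2, the canalicular pump for bilirubin conjugates and other organic anions. No read was recovered in any library of A or D, whereas B had 24, 14 and 7 reads and C had 86, 26 and 95. In FPKM these were 0.134, 0.0775 and 0.0403 in B and 0.523, 0.132 and 0.521 in C. Every Cu/ES library thus held reads of a gene that no other library held, and library 2 of C lay below library 1 of B. Group B was at least 18.5-fold higher than A, taking 3 reads over the group as the floor. The call for B vs. A depended on the test: it passed by limma-voom on reads (adjusted p = 4.62e-05) but not by limma on FPKM without a filter (adjusted p = 0.352 at a pseudocount of 1 and 0.0532 at 0.1). Between C and B the log2 fold change was 2.05, SE 0.61, with adjusted p = 0.0276 by limma-voom. That call was lost without library 2 or 3 of B (adjusted p = 0.0804 and 0.118 by limma-voom) and without library 1 or 3 of C (0.0752 and 0.0838). Reads in B and C at genes silent in A and D were common: of 2693 genes at 0 in all libraries of A and D, 849 (31.5%) had a read in every library of B, and 218 (8.10%) had at least 7 reads, the lowest number of Abcc2, in every library of B and C.

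Abcc3 encodes MRP3, a basolateral pump for glucuronides and bile acids. It had 224, 490 and 281 reads in A, 18, 41 and 15 in B, 18, 24 and 16 in C and 178, 359 and 203 in D. In FPKM these were 1.17, 2.51 and 1.43 in A, 0.113, 0.255 and 0.0971 in B, 0.123, 0.137 and 0.0987 in C and 0.891, 1.81 and 1.02 in D. Libraries without copper lay far above libraries with it, and in each of the 4 groups library 2 was the highest. Abcc3 fell 11-fold in B against A (log2 fold change -3.48, SE 0.57, adjusted p = 5.22e-05 by limma-voom), and the call held in all 16 alternatives, at -1.20 to -3.90. Its differences with TCA did not pass, at -0.25 for C vs. B (95% interval -2.04 to 1.54, adjusted p = 0.885 by limma-voom) and -0.45 for D vs. A (-1.12 to 0.22, adjusted p = 0.404).

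Abcc4 encodes MRP4, which exports bile acids and cyclic nucleotides across the basolateral membrane. Its level was 13.4, 13.0 and 14.0 FPKM in A, 6.91, 7.22 and 5.90 in B, 6.56, 4.46 and 5.44 in C and 17.7, 16.3 and 19.1 in D. Group D was the highest and A came next, while B and C overlapped. Expression in B was lower than in A (log2 fold change -0.92, SE 0.11, adjusted p = 1.83e-06 by limma), which was 0.18 above the median of all genes. As for Nr1h4, the direction turned with the scaling, to 0.24 with the median ratio (adjusted p = 0.0473 by limma) and 0.24 with quantiles (adjusted p = 0.0419). Addition of TCA to Cu/ES gave -0.25 (SE 0.11, unadjusted p = 0.0406 and adjusted p = 0.0827 by limma). It passed without library 3 of B (-0.33, adjusted p = 0.0474) or library 1 of C (-0.37, adjusted p = 0.0136). TCA alone raised Abcc4 by 1.31-fold (log2 fold change 0.36, SE 0.11, adjusted p = 0.0324 by limma), a call lost in 5 of 6 fits without a library of A or D (0.31 to 0.42, adjusted p up to 0.125).

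Slc51b encodes a subunit of the OSTα-OSTβ transporter, which FXR induces in cholestasis. It was listed at 0.128 FPKM in library 2 of B and at 0 in the other 11 libraries, too low to compare groups. Limma without a filter called no difference for it (for B vs. A, adjusted p = 0.241 at a pseudocount of 1 and 0.219 at 0.1).

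**Figure D2:**
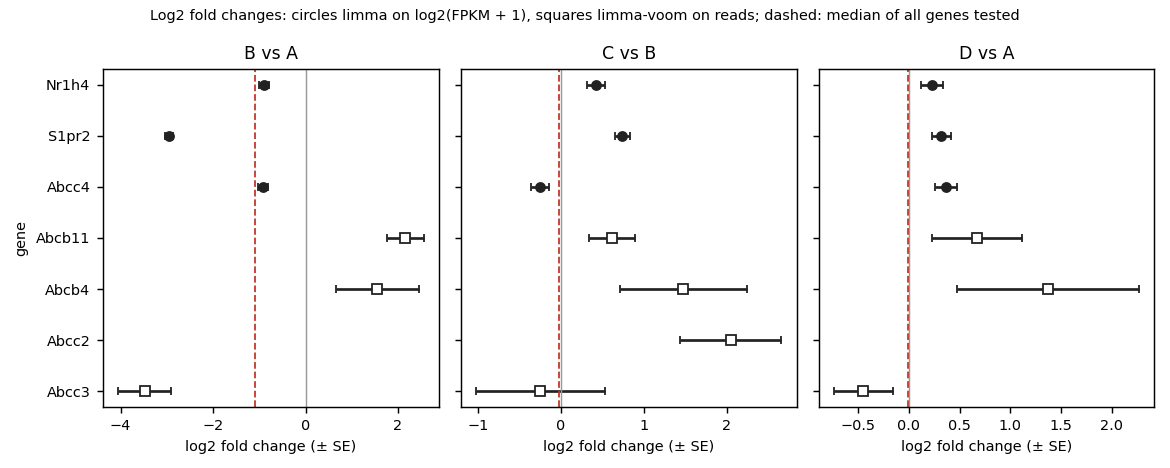
Log2 fold changes (horizontal axis, with SE as error bars) of the members in the 3 comparisons. Circles are limma fits on log2(FPKM + 1) for measured members, squares are limma-voom fits on reads for low members (Abcc2 is drawn only for C vs. B, since it had no reads in A or D), the grey line is 0 and the dashed line is the median of the 10615 genes tested by limma (-1.10 in B vs. A). S1pr2 and Abcc3 lie left of the dashed line and Abcb11 lies right of 0 in B vs. A.

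With Cu/ES, all 3 measured members passed an adjusted p of 0.05 and were lower, where 72% of all genes tested were called lower. Past the fold threshold as well (an absolute log2 fold change above 1) only S1pr2 remained of the 3, against 53% of all genes tested. A median-ratio scaling moved the split of all genes past both thresholds from 1070 higher and 5622 lower to 2757 higher and 2722 lower. S1pr2 was lower and past both thresholds under each scaling. Of the 4 low members, Abcb11 and Abcc2 were higher and Abcc3 was lower in the fit on reads, where 25.1% of the 11597 genes under the filter were called higher and 21.7% lower. With TCA added to Cu/ES, Nr1h4 and S1pr2 of the 3 measured members were called higher (20.4% of all genes tested), and of the low members Abcc2 was (7.2% of genes under the filter). No measured member passed the fold threshold there on the log2(FPKM + 1) scale, against 1.13% of all genes tested. S1pr2 passed it with a pseudocount of 0.1 (1.18) and by limma-voom on reads (1.26), but not with TPM, median-ratio or quantile scaling. With TCA alone, S1pr2 and Abcc4 were called higher (10.5% of all genes tested), neither past the fold threshold (0.0659% of all genes tested), and none of the 4 low members passed by limma-voom, nor had an unadjusted p under 0.05 (3.54% of genes under the filter called in either direction). Without overlap between the groups, the 3 measured members were lower in B than in A (72.4% of genes with a mean of at least 1 FPKM), as was Abcc3 of the low members (17.8% of genes under the filter), while Abcb11 and Abcc2 were higher (17.1%). In C vs. B, Nr1h4 and S1pr2 (22% of genes with a mean of at least 1 FPKM) and Abcb11 and Abcb4 (9.75% of genes under the filter) were higher without overlap. In D vs. A, S1pr2 and Abcc4 (20.7%) and Abcb11 (2.19% of genes under the filter) were. The comparisons B vs. A and D vs. A share the libraries of A, and C vs. B shares those of B.

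In group C, library 2 was the lowest of the 3 for S1pr2, Abcb11, Abcb4, Abcc2 and Abcc4, and the only one with several reads of Nr0b2. It was also the deepest of group C, with 34912748 reads. Without it the log2 fold change of C vs. B rose to 0.84 for Abcb11, as given above, and the other calls of C vs. B among the members were unchanged.

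Whether TCA acted differently on cells with and without Cu/ES was tested as the interaction, (C - B) - (D - A), for which 37.5% of all genes tested were called. For S1pr2 the change with TCA was larger under Cu/ES, at 0.74 against 0.32 without (difference 0.42, SE 0.13, adjusted p = 0.0208 by limma). The size of this difference depended on the scale, since S1pr2 stood at 0.912 FPKM in B, where adding 1 shrinks log2 changes. It was 0.84 with a pseudocount of 0.1 and 0.92 on recovered reads. For Abcc4 the signs were opposite, -0.25 under Cu/ES against 0.36 without (difference -0.62, SE 0.16, adjusted p = 0.00791 by limma), and the difference passed in all 21 alternatives, at -0.50 to -0.73. For Nr1h4 the difference was 0.19 with a 95% interval from -0.16 to 0.54 (adjusted p = 0.346 by limma).

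**Figure D3:**
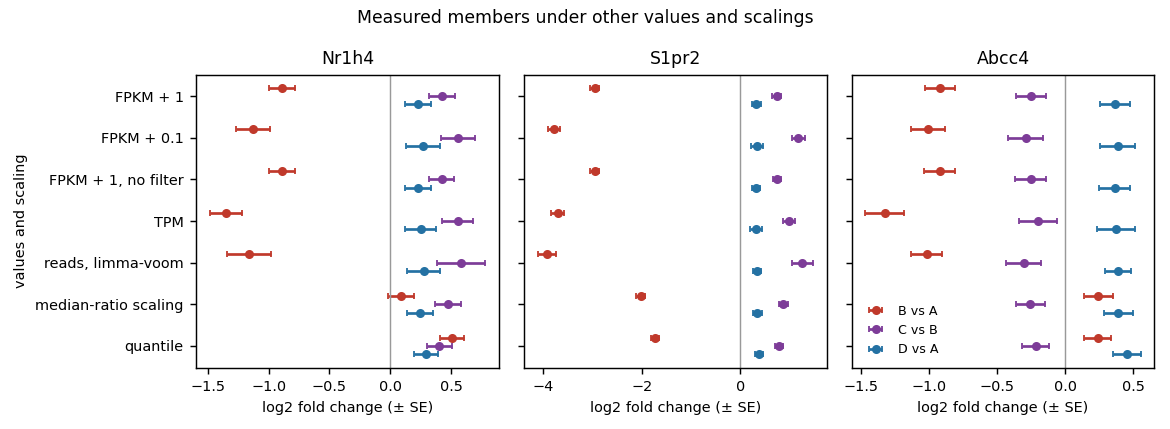
Log2 fold changes (horizontal axis, with SE) of Nr1h4, S1pr2 and Abcc4 in the 3 comparisons, computed from other values, filters and scalings of the libraries (vertical axis). Nr1h4 and Abcc4 cross 0 in B vs. A with median-ratio or quantile scaling (0.089 and 0.51 for Nr1h4, 0.24 and 0.24 for Abcc4), while S1pr2 stays between -1.72 and -3.92.

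The genes around the members were described from 6 lists, counting those with a mean of at least 1 FPKM. In these counts, rose and fell mean called higher or lower at an adjusted p under 0.05 by limma. The counts are to be read against all genes tested, of which 20.1% were called higher and 72% lower in B vs. A (median log2 fold change -1.10), 20.4% and 23.6% in C vs. B (median -0.03) and 10.5% and 11.5% in D vs. A (median -0.01). All 5 tested genes of bile acid synthesis and conjugation, of 19 listed, fell in B, with a median of -2.52, whereas median-ratio scaling called 4 lower and 1 higher. Among them Scp2, which encodes a peroxisomal thiolase and a sterol carrier protein, went from 26.3 ± 0.807 FPKM in A to 1.73 ± 0.226 in B. Hsd17b4, the peroxisomal enzyme that shortens the bile acid side chain, went from 17.9 ± 0.561 to 1.99 ± 0.367. Hsd3b7, an enzyme that modifies the sterol ring, went from 23.7 ± 2.58 to 4.96 ± 0.414 FPKM. In this list 3 of the 5 genes were called lower in C vs. B and 2 in D vs. A, and none was called higher.

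The partners of FXR were also lower in B. All 9 tested nuclear receptors and cofactors, of 19 listed, fell, where 72% of all genes tested did, and their median of -0.95 lay above the -1.10 of all genes. With median-ratio scaling 4 were called higher and 4 lower. Ncor1, a corepressor of nuclear receptors, fell by 2.77 on the log2 scale (SE 0.10, adjusted p = 3.46e-12 by limma), Rxrb, a partner of FXR, by 2.24 and Carm1, an arginine methyltransferase that coactivates FXR, by 2.02. These 3 fell under median-ratio scaling too, by 1.59, 1.06 and 0.84. With TCA added, 3 of the 9 rose and 2 fell. Prmt1, the other methyltransferase of the list, showed an interaction of -1.08 (SE 0.13, adjusted p = 7.07e-05 by limma), with 89.5 ± 3.63 FPKM in B and 47.0 ± 7.96 in C.

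Genes reported elsewhere as FXR targets moved both ways in B. Of 8 tested among 15 listed, 2 rose and 5 fell, with a median of -1.68, and median-ratio scaling called 3 higher and 5 lower. Osgin1, an oxidative stress gene, went from 10.1 ± 1.0 to 64.1 ± 2.90 FPKM, Vldlr, the receptor for very low density lipoprotein, from 21.4 ± 1.29 to 1.28 ± 0.131, and Sdc1, the heparan sulfate proteoglycan syndecan-1, from 30.3 ± 0.413 to 4.56 ± 0.585. In C vs. B 2 of the 8 rose and 1 fell, and in D vs. A 2 rose and 2 fell. Lpin1, a phosphatidate phosphatase, had an interaction of 1.03 (SE 0.21, adjusted p = 0.00207 by limma).

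Around S1pr2, the genes of sphingosine 1-phosphate signalling also split in B, with 3 rising and 5 falling of 9 tested among 18 listed (median -1.55), against 4 higher and 5 lower with median-ratio scaling. Sgpp1, a phosphatase of sphingosine 1-phosphate, went from 12 ± 1.92 to 0.529 ± 0.187 FPKM. Gna12 and Gnaq, G protein subunits that act downstream of receptors of this kind, went from 29.4 ± 1.89 to 3.85 ± 0.352 and from 8.24 ± 0.394 to 2.04 ± 0.281. With TCA added, 3 rose and 1 fell, and with TCA alone 1 rose and 1 fell. Gna13, the other G12-class subunit, had an interaction of 1.02 (SE 0.19, adjusted p = 0.00103 by limma), at 27.4 ± 1.74 FPKM in B and 50.4 ± 11.6 in C.

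Of the other carriers, 7 of 9 tested among 21 listed were called lower in B (median -0.77), and 2 were higher without passing. Median-ratio scaling called 6 higher and 2 lower. Abcd3, a peroxisomal carrier that brings bile acid precursors into the organelle, fell by 2.68 (1.76 with median-ratio scaling), and the prostaglandin carrier Slco2a1 fell by 1.80 (0.65 with that scaling). In C vs. B 1 rose and 3 fell, and in D vs. A 3 rose and 2 fell. Of the genes that place and hold the pumps at the canalicular membrane, 3 rose and 7 fell among 12 tested of 16 listed (median -0.63), against 7 higher and 3 lower with median-ratio scaling. Rdx, which anchors MRP2 at the membrane, fell by 2.82 on the log2 scale. The junction protein gene Tjp1 fell by 1.97, while Ezr, at -1.15, turned to 0.12 with median-ratio scaling (adjusted p = 0.253 by limma). With TCA added to Cu/ES 5 of the 12 rose and 1 fell, and with TCA alone 1 rose.

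**Figure D4:**
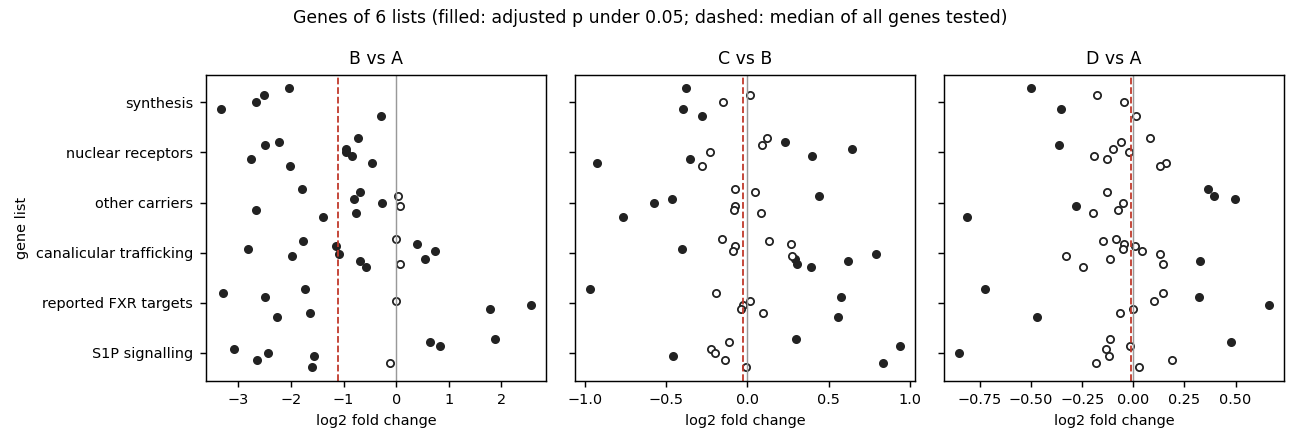
Log2 fold changes (horizontal axis) of the tested genes of the 6 lists (vertical axis, 1 point per gene) in the 3 comparisons, each panel with its own scale. Filled points had an adjusted p under 0.05 and the dashed line is the median of all 10615 genes tested. The 5 synthesis genes all lie left of 0 in B vs. A, and no list gene exceeds an absolute log2 fold change of 1 in C vs. B or D vs. A.

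The profiles most like those of the measured members were found by the distance between log2 differences of groups B, C and D from A, over 10614 other genes. Nearest to Nr1h4 were Orai2, a calcium channel subunit (distance 0.0211), Josd1 (0.0672) and Tns2 (0.0822), where the median distance of all genes was 1.61. Nearest to S1pr2 were Bltp3a (0.188), Polr2a, the largest subunit of RNA polymerase II (0.196), and Etv5, an ETS transcription factor (0.223), with a median of 2.24. Nearest to Abcc4 were Gtf3c6 (0.0455), Ttc13 (0.0849) and Gpn1 (0.0941), with a median of 1.48. The distance covers 3 group differences from the same control libraries and describes likeness of values only.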

How the data were processed

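The members and gene lists were chosen with earlier results of these data known. Per the labels, polyadenylated RNA of AML12 cells was extracted with TRIzol and made into libraries with a VAHTS kit. The submitters' processing notes name fastp, HISAT2, HTSeq and GRCm39, without versions, and the annotation is not given in the sources used here. The authors deposited FPKM per gene and library, that is reads divided by gene length and library total. Reads were recovered from the spacing of these values, and all 22212 genes above 0 in at least 2 libraries gave whole reads within 0.05 read. Genes above 0 in only 1 library (2612, Slc51b among them) could not be converted.

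Groups came from the labels. The test was limma 3.58.1 in R 4.3.3 on log2(FPKM + 1), with a mean-variance trend, for 10615 genes with a mean of at least 1 FPKM, in 1 fit of all 12 libraries. The contrasts were B vs. A, C vs. B, D vs. A and their interaction, two-sided, with Benjamini-Hochberg adjustment. The study's counts were not used, so DESeq2 was not run. Low members were tested by limma-voom on the recovered reads. The exact permutation test of 3 against 3 libraries cannot give a p under 0.1. Alternatives were a pseudocount of 0.1, no filter or a mean of at least 5 FPKM, TPM, median-ratio and quantile scaling, a replicate block, no trend, only the groups compared, limma-voom and each library left out. Variants of limma-voom and the pseudocount of 0.1 without a filter were added after seeing the data. The fits were run on simulated data with as many genes raised as lowered. That setting is unlike B vs. A, where most genes tested were called lower, and cannot vouch for it. Intervals on reads are 95% exact and, like limits from 3 reads, cover counting error only. The 95% intervals of log2 fold changes combine the SE of the fit with its 8 residual degrees of freedom. They are therefore wider than the p-values of the same fit imply.

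Named genes were the 10 members, from each list and comparison up to 3 genes with the largest absolute log2 fold change among those past both thresholds with a mean of at least 5 FPKM, and the 3 nearest profiles of each measured member. Promoter windows came from a RefSeq table of GRCm38.p6. Tables were computed in Python 3.11.15 (numpy 2.4.6, pandas 2.3.3, scipy 1.17.1) and drawn with matplotlib 3.10.9.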

Additional observations from a re-analysis of the deposited data

Results flagged for a closer look

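S1pr2 stood out because the change with TCA differed between cells with and without Cu/ES in the test of the interaction. On the log2(FPKM + 1) scale the difference was 0.42 (SE 0.13, adjusted p = 0.0208 by limma), with TCA libraries above their controls in 3 of 3 libraries in both settings. Without the first library of D it was 0.40 (adjusted p = 0.0529 by limma).

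Abcc4 stood out for the same reason, with a difference of -0.62 (SE 0.16, adjusted p = 0.00791 by limma). TCA libraries lay above all control libraries without Cu/ES, while under Cu/ES groups B and C overlapped. The causes of both differences were not tested.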

How the results depend on the processing

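Cu/ES effects on S1pr2, Abcb11 and Abcc3 and the rises of Nr1h4 and S1pr2 with TCA under Cu/ES kept their direction and their call in every alternative run. The direction of Nr1h4 and Abcc4 in B vs. A turned, to 0.089 and 0.24 with median-ratio scaling and to 0.51 and 0.24 with quantile normalization. Of the members, 3 were called in B vs. A, 5 without a filter and 6 by limma-voom. Past both thresholds were 1, 3 with a pseudocount of 0.1 or TPM, 2 without a filter and 6 by limma-voom. In C vs. B 2 were called, 4 without a filter and 1 at a mean of at least 5 FPKM, where Nr1h4 was not tested. Past both thresholds there were 0 (2 called at adjusted p by limma), 1 with a pseudocount of 0.1 and 2 by limma-voom. Of 2 called in D vs. A, 0 were left with a pseudocount of 0.1 or TPM and 1 without a filter, where more genes were tested, although S1pr2 and Abcc4 (2 of 3) had an unadjusted p under 0.05 by limma in each. These calls were lost for S1pr2 (0.34 and 0.32) and Abcc4 (0.39 and 0.37, and 0.36 without a filter), whereas Nr1h4 passed with quantile normalization (0.29). Abcb4 passed in B vs. A by limma-voom with median-ratio library sizes (2.89), and in C vs. B by limma without a filter, at 0.13 with a pseudocount of 1 and 0.73 with 0.1.

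Leaving out each library in turn gave 0 to 2 members called in D vs. A and 1 to 2 for the interaction. Ranges were 0.14 to 0.33 for Nr1h4, 0.28 to 0.36 for S1pr2 and 0.31 to 0.42 for Abcc4 in D vs. A, and 0.33 to 0.48 for the interaction of S1pr2. In C vs. B they were -0.37 to -0.13 for Abcc4 by limma. By limma-voom, Abcc2 ran from 1.63 to 2.75, losing its call without B2 (2.07), B3 (1.63), C1 (1.73) or C3 (1.70), Abcb11 from 0.41 to 0.84, Abcb4 from 1.29 to 1.74, and Abcc3 from -0.51 to 0.17, the last without B2. Abcb4 in B vs. A ran from 0.27 to 2.54, the last without A1 (adjusted p = 0.0211 by limma-voom). The cause was not tested for any of these changes.

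Libraries with the same replicate number deviated together with a mean correlation of 0.125 over 18 pairs (-0.171 to 0.579, 11 of them over 0.1). Between other pairs the mean was -0.059 (7 of 36 over 0.1). Deviations sum to 0 within each group, so this mean largely follows from that of the same-number pairs and adds no evidence of its own. What the replicate number stands for was not tested, and the main fit left it out. With it as a block, limma called 9825 genes in B vs. A, 4897 in C vs. B, 2609 in D vs. A and 4190 for the interaction, against 9777, 4670, 2339 and 3984 without it. Of the members, S1pr2 had -2.96, 0.74, 0.32 and 0.42, Nr1h4 -0.89, 0.42, 0.23 and 0.19, and Abcc4 -0.92, -0.25, 0.36 and -0.62 in this order with the block, and the block changed no call of a member. For Abcc3, highest in library 2 of each group, the block in limma-voom left D vs. A at -0.45 and moved the SE from 0.29 to 0.19 (adjusted p = 0.156 against 0.404). Nr0b2 stayed under 10 reads in every library, and no difference was called for it in the fits run.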
